A study of Mus musculus with 8 samples.

Results

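Hepatic expression of 10 genes of de novo lipogenesis, the synthesis of fatty acids from acetyl-CoA, was examined in SIRT7 KO and WT livers. The genes were the enzymes Fasn, Acaca, Acacb, Acly, Me1 and Pklr, the lipogenic nuclear protein Thrsp, the transcription factors Srebf1 and Mlxipl, and Insig2, which retains the SREBP pathway in the endoplasmic reticulum (ER). They were chosen by name, and every probe set annotated to exactly 1 of these symbols was kept, which gave 20 of the 22626 probe sets tested. Each gene had at least 1 probe set, and no filter on low values was set, so all 20 are described.

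Total RNA was taken from the livers of 4 WT mice and 4 SIRT7 KO mice (KO arrays 1 to 4), with 1 Affymetrix GeneChip array for each mouse. SIRT7 is a histone deacetylase, and the study uses mice that lack it as a model of nonalcoholic steatohepatitis. The labels give tissue and genotype and no treatment. Per the methods, food and water were freely available to the mice. The strain, sex, age and litter of the mice used for the arrays, the hour of collection and any fast before it, and the batch of the arrays, are not given in the labels or methods. Values are log2 expression, so that a difference of 1 is a doubling, and differences are SIRT7 KO minus WT. In bulk tissue, fewer cells of a type and less RNA per cell cannot be told apart.

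Lipogenesis turns surplus carbohydrate into fat. Acly splits citrate into cytosolic acetyl-CoA, Acaca and Acacb carboxylate it to malonyl-CoA, Fasn builds palmitate from both, and Me1 supplies NADPH for the reduction steps. Pklr, the liver form of pyruvate kinase, feeds pyruvate into the pathway. In the liver the enzyme genes are driven by SREBP-1c, a product of Srebf1 that responds to insulin, and by ChREBP, the product of Mlxipl, which responds to sugars. SREBP precursors are held in the ER membrane by SCAP bound to an INSIG protein, and in mouse liver a transcript of Insig2 is known to rise in fasting and to be repressed by insulin.

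The targeted gene Sirt7 fell by 4.21 ± 0.13 (SE) to 4.64 ± 0.22 (SD, n = 4) in SIRT7 KO livers, near 4.56, the lower quartile of the means of all probe sets, so background bounds the difference. On principal component 1, which held 28.0% of the variance, WT array 4 stood apart at -34.5 while the other WT arrays lay between -11.2 and -2.10, and SIRT7 KO arrays between 4.89 and 23.9. All 7 hepatocyte markers measured, of 8 listed, lay at group means of 12.67 or more, and 0 of them passed the test (1 lower at an unadjusted p under 0.05). A positive difference was seen for 0 of the 7, against 49.3% of all genes, with a median of -0.14. Of 6 white adipocyte markers measured, of 8 listed, the fat cell hormones Adipoq and Lep had group means of at most 3.65 and 3.60, under the lower quartile. The others, Retn, Lipe, Slc2a4 and Pparg, lay above it, with group means of 5.44 or more. Of the 8 macrophage markers limma called 0 (0 also at an unadjusted p under 0.05). Their mean level ranged from 8.61 to 9.44 in WT and from 8.67 to 9.54 in SIRT7 KO arrays. A positive difference was seen for 7 of the 8, with a median of 0.15. The part of these cell types in the results was not tested.

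Insig2 was the only member with probe sets that passed the test. Its 3 starts in RefSeq (GRCm38.p6) and the start of Fasn are shown because Insig2 is known to be transcribed from alternative promoters, and because Fasn had the most CCAAT boxes of the enzymes. The CCAAT box is bound by NF-Y, a partner of SREBPs at many lipid genes. Each sequence reads from 250 bases before to 50 bases after the start. Capitals mark CCAAT or, on the other strand, ATTGG.
Insig2, upstream start, chr1:121332540-121332839, - strand: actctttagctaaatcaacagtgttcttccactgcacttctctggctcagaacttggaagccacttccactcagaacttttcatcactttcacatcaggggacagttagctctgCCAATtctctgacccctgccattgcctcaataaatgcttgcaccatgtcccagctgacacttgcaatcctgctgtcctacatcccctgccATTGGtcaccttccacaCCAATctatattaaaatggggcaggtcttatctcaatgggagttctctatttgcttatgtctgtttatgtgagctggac
Insig2, middle start, chr1:121327975-121328274, - strand: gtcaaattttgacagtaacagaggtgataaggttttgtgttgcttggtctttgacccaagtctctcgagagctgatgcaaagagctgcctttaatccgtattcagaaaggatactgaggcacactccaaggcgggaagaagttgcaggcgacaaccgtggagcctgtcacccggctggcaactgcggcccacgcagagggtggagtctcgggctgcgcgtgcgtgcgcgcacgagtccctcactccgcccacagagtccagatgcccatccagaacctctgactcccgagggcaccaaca
Insig2, downstream start, chr1:121327629-121327928, - strand: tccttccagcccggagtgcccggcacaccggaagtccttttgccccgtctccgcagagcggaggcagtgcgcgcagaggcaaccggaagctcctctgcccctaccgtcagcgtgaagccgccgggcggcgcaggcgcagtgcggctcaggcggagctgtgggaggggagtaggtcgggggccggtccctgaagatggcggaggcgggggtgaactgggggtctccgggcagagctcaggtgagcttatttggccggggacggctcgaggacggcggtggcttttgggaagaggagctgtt
Fasn, chr11:120824498-120824797, - strand: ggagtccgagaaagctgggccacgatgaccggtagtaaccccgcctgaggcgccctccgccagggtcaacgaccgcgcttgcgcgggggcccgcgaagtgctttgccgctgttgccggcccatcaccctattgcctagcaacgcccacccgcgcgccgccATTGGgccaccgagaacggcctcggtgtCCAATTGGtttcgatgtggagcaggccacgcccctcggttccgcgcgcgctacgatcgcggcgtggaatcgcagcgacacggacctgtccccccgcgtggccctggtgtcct
The upstream Insig2 window holds 3 CCAAT boxes, which begin 136, 46 and 29 bases before the start, while the middle and downstream windows hold none. The Fasn window holds 3 matches, at 90, 62 and 59 bases before the start, of which the last 2 lie on opposite strands and overlap.

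RefSeq listed 17 such windows for the 10 genes, and a few motifs were searched in them on both strands. The NF-Y box CCAAT was found in 10 of the 17 windows, belonging to 9 of the 10 genes, against 37.4% of the 32544 mouse promoter windows. The GC box of Sp1, written GGGCGG, was found in 7 of the 17 windows, against 35.9% of all. The E-box, searched only as the exact letters CACGTG, was found in 1 window, which belongs to Mlxipl, against 7.17% of all. E-boxes that depart from these letters, alone or in pairs, were not searched, so this count does not give the ChREBP sites. A core of the sterol element, searched as TCACNCCAC, was found in 1 other window of Mlxipl, against 1.24% of all. Apart from the Fasn pair, no matches overlapped in the windows shown, and capitals mark the CCAAT box alone there. The array values do not say which Insig2 start was in use, since the 3 probe sets are annotated to the same accession.

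Insig2 was higher in SIRT7 KO livers by about 2-fold with each of its 3 probe sets. With 1417982_at, the brightest, the WT arrays 1 to 4 read 12.25, 11.99, 12.07 and 11.39, and the SIRT7 KO arrays 12.98, 12.82, 13.09 and 12.37. With 1417981_at, the values were 12.04, 11.88, 11.91 and 11.16 in WT and 12.83, 12.62, 13.01 and 12.38 in SIRT7 KO livers. With 1417980_a_at, they were 11.21, 10.99, 11.03 and 10.25 in WT and 11.94, 11.98, 12.26 and 11.69 in SIRT7 KO livers. Every SIRT7 KO array lay above every WT array with all 3 probe sets, and WT array 4 was the lowest of the 8 each time.

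The differences were 0.89 ± 0.21 (SE, n = 4 per group, limma adjusted p = 0.0897), 0.96 ± 0.20 (adjusted p = 0.0703) and 1.10 ± 0.20 (adjusted p = 0.0510), which are 1.85-, 1.95- and 2.14-fold. Groups did not overlap in the higher direction for 3.79% of all probe sets and in the lower direction for 5.56%. The call of 1417982_at was lost on removing WT array 2, KO array 1, KO array 2 or KO array 3 (adjusted p = 0.161, 0.176, 0.179 and 0.181), whereas the other probe sets passed whichever of the 8 arrays was removed. Without WT array 4, the array that stood apart, the smallest difference of the 3 was 0.71, and all 3 passed.

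**Figure D1:**
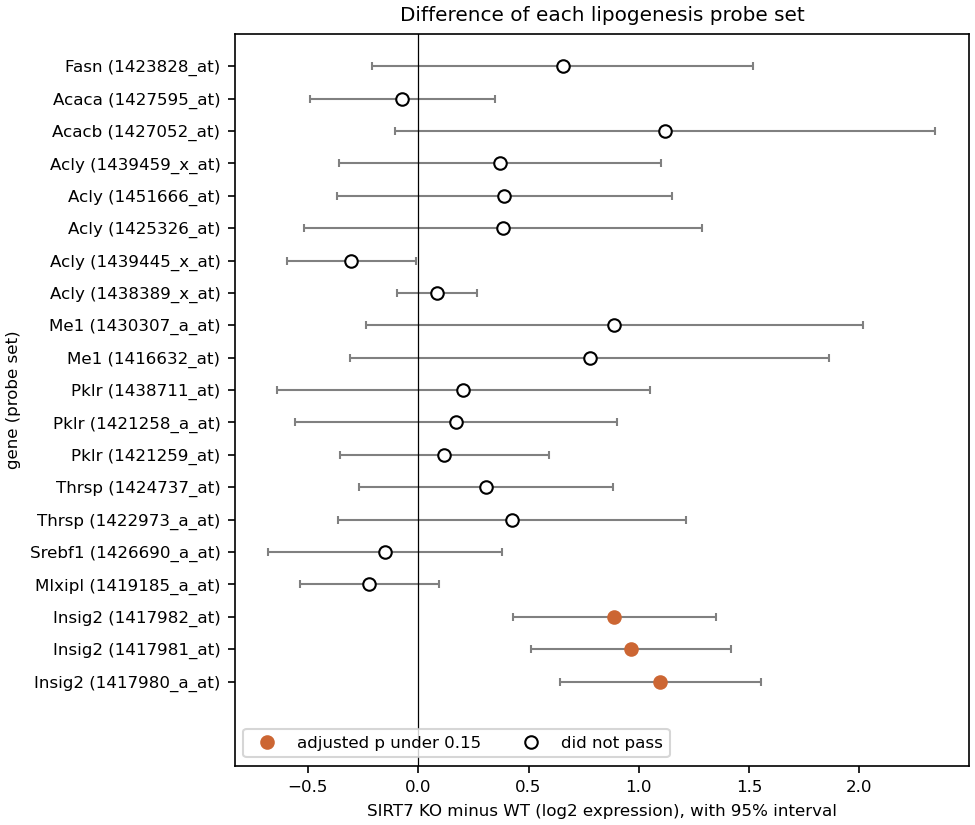
Difference in log2 expression, SIRT7 KO minus WT (horizontal axis), of each of the 20 probe sets (vertical axis, gene and probe set), with points for the estimate over 4 arrays per genotype and lines for its 95% interval. The 3 filled points, those of Insig2 between 0.89 and 1.10, passed at an adjusted p under 0.15, and the 17 open points did not.

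Of the 20 probe sets, limma called 3 higher, all of Insig2, and 0 lower (1 lower at an unadjusted p under 0.05). Over all probe sets 1.92% were called higher and 2.39% lower, and 3369 of the 22626 had an unadjusted p under 0.05 in either direction. With each gene taken by its brightest probe set, 1 of 10 genes was called higher and 0 lower, against 2.17% and 2.48% of all 12393 genes. A positive difference was seen for 16 of the 20 probe sets, against 49.2% of all probe sets, with a median of 0.38 (-0.0031 over all probe sets). Several of the 20 belong to the same gene. By the brightest probe set it was seen for 7 of 10 genes, against 49.3% of all genes, with a median of 0.34.

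By the brightest probe set of each, all 6 enzymes had a WT SD larger than their difference between the genotypes. Limma called 0 of the 13 enzyme probe sets (1, of Acly, at an unadjusted p under 0.05). Fasn (1423828_at) read 11.29, 10.75, 12.36 and 10.32 in WT arrays 1 to 4 and 11.84, 12.16, 11.33 and 12.004 in SIRT7 KO arrays 1 to 4. The highest and the lowest of the 8 values were both WT, so the SIRT7 KO values lay within the WT range. The difference was 0.65 ± 0.38 (SE, 95% interval -0.21 to 1.52, adjusted p = 0.485). Without WT array 3, the highest, it was 1.05 and passed (adjusted p = 0.128). In the other fits with 1 array removed it did not pass (differences down to 0.37, adjusted p of up to 0.672).

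Acacb, the acetyl-CoA carboxylase of the mitochondrial surface, had the widest WT range of the enzymes. Acacb (1427052_at) read 8.12, 7.05, 9.25 and 6.19 in WT arrays and 8.93, 9.08, 8.47 and 8.62 in SIRT7 KO arrays, which is an 8.31-fold range in WT and a 1.52-fold range in SIRT7 KO livers. WT array 3 again lay above all SIRT7 KO arrays, and the other 3 WT arrays below them. The difference of 1.12 ± 0.54 (95% interval -0.11 to 2.34) did not pass (adjusted p = 0.384), although it did without WT array 3 (1.65, adjusted p = 0.121). With any other array removed it did not pass (differences down to 0.63, adjusted p of up to 0.568). The cytosolic carboxylase Acaca (1427595_at) lay between 4.50 and 5.43 on all arrays, near the lower quartile of 4.56, with a difference of -0.07 ± 0.19 (adjusted p = 0.902).

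Acly had 5 probe sets, of which 3 were well above the lower quartile. The brightest, 1439459_x_at, read 11.95, 11.33, 12.87 and 11.20 in WT and 12.38, 12.40, 11.88 and 12.16 in SIRT7 KO livers. As with Fasn, WT array 3 was the highest and WT array 4 the lowest of the 8. The 3 bright probe sets differed by 0.37, 0.39 and 0.38, with adjusted p of 0.662, 0.653 and 0.721. The other probe sets, 1439445_x_at and 1438389_x_at, lay between 3.07 and 3.97, below the lower quartile, and differed by -0.30 (adjusted p = 0.316) and 0.086 (adjusted p = 0.685), so the 5 did not share a sign.

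Me1 (1430307_a_at) read 12.56, 11.21, 12.93 and 10.75 in WT arrays and 13.19, 13.42, 11.98 and 12.42 in SIRT7 KO arrays. Its spread was wide in both genotypes, with a 4.52-fold range in WT and a 2.71-fold range in SIRT7 KO livers. The difference was 0.89 ± 0.50 (95% interval -0.24 to 2.01, adjusted p = 0.462), and that of 1416632_at was 0.78 (adjusted p = 0.514). Pklr (1438711_at) read 9.35, 8.14, 10.10 and 8.34 in WT and 9.13, 9.22, 9.01 and 9.39 in SIRT7 KO livers. The WT values spanned a 3.88-fold range around the SIRT7 KO values, which spanned 1.30-fold. The 3 Pklr probe sets differed by 0.21, 0.17 and 0.12 (adjusted p = 0.855, 0.860 and 0.850).

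**Figure D2:**
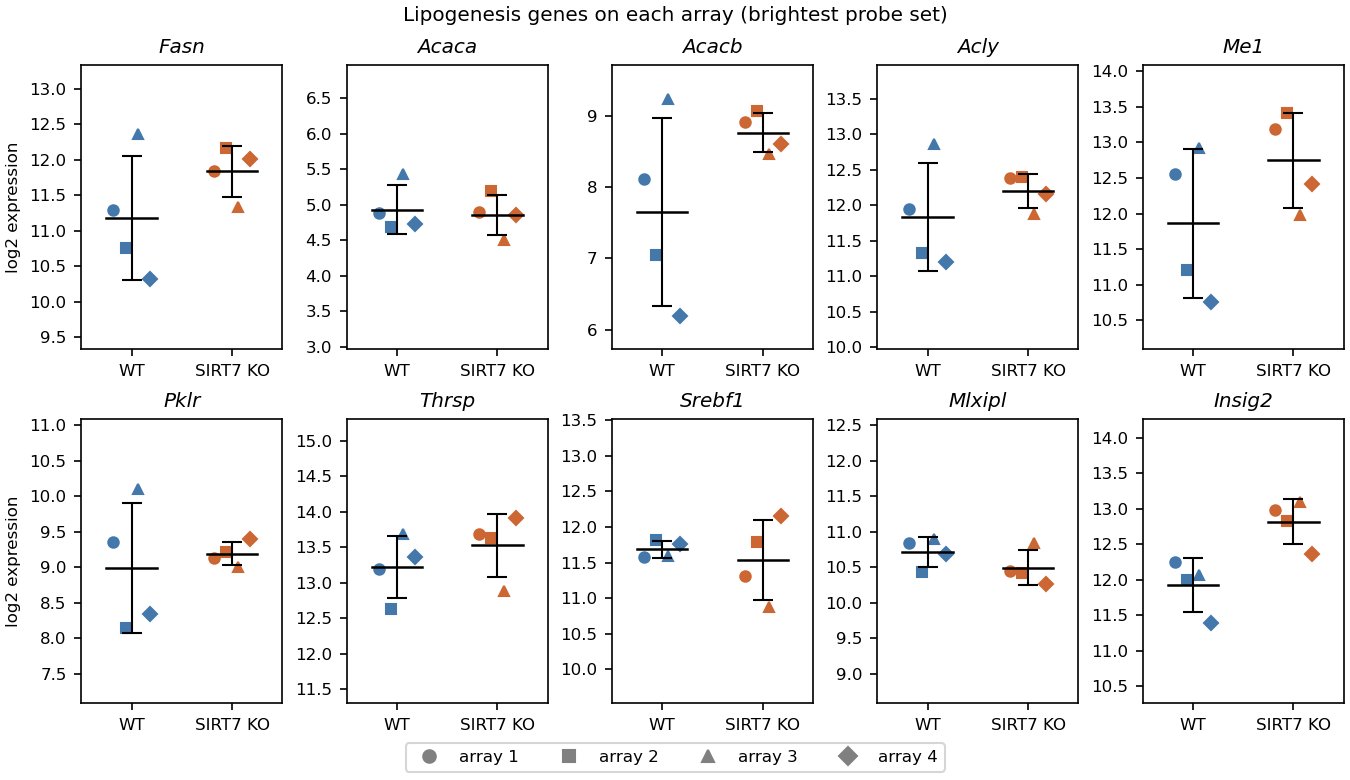
Log2 expression (vertical axis, each panel spanning 4 units) of the brightest probe set of each of the 10 genes on the 4 WT arrays (blue) and the 4 SIRT7 KO arrays (orange), with symbols for the array number, horizontal lines for group means and bars for ± SD. The groups are apart for Insig2, while the WT points of Fasn, Acacb, Acly and Pklr spread more widely than the SIRT7 KO points and enclose them.

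The enzymes moved together from array to array. Averaged over the 6 enzymes by their brightest probe sets, each centred on its mean over the 8 arrays, WT arrays 1 to 4 lay at 0.02, -0.81, 0.82 and -1.08, and SIRT7 KO arrays at 0.39, 0.57, -0.14 and 0.24. WT array 3 was the highest WT array for 6 of 6 enzymes, WT arrays 2 and 4 were the lowest pair for 6 of 6, and SIRT7 KO array 3 was the lowest SIRT7 KO array for 6 of 6. The WT SD of this mean was 0.86 and the SIRT7 KO SD 0.30, which are ranges of 3.73-fold and 1.64-fold. The means differed by 0.53, which is less than the WT SD. The 6 include Acaca, which lay near the lower quartile of all probe sets.

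The WT SD exceeded the SIRT7 KO SD in 13 of 13 enzyme probe sets and in 16 of the 20 probe sets, against 53.7% of all probe sets. This was not particular to the members. Acss2 (WT SD 0.90, SIRT7 KO SD 0.07) and Elovl5 (0.96 and 0.20), from the lists described below, had it too. Ppp1r3c (0.65 and 0.87) had the reverse, and the listed genes of each kind were not counted. Among the WT SDs of all genes, those of Fasn (0.88), Acacb (1.32), Acly (0.76), Me1 (1.05) and Pklr (0.91) ranked at the 98.7th percentile or above, and that of Acaca (0.34) at the 92.4th. In SIRT7 KO livers, the SD of Pklr (0.16) ranked at the 68.7th percentile, that of Acly (0.24) at the 87.5th, those of Acacb (0.28) and Acaca (0.28) at the 91.1st and 91.5th, that of Fasn (0.36) at the 95.1st and that of Me1 (0.67) at the 98.9th. The probe sets of an enzyme and the enzymes themselves share the same 8 livers, so these counts describe the livers, and the difference in spread was not tested.

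**Figure D3:**
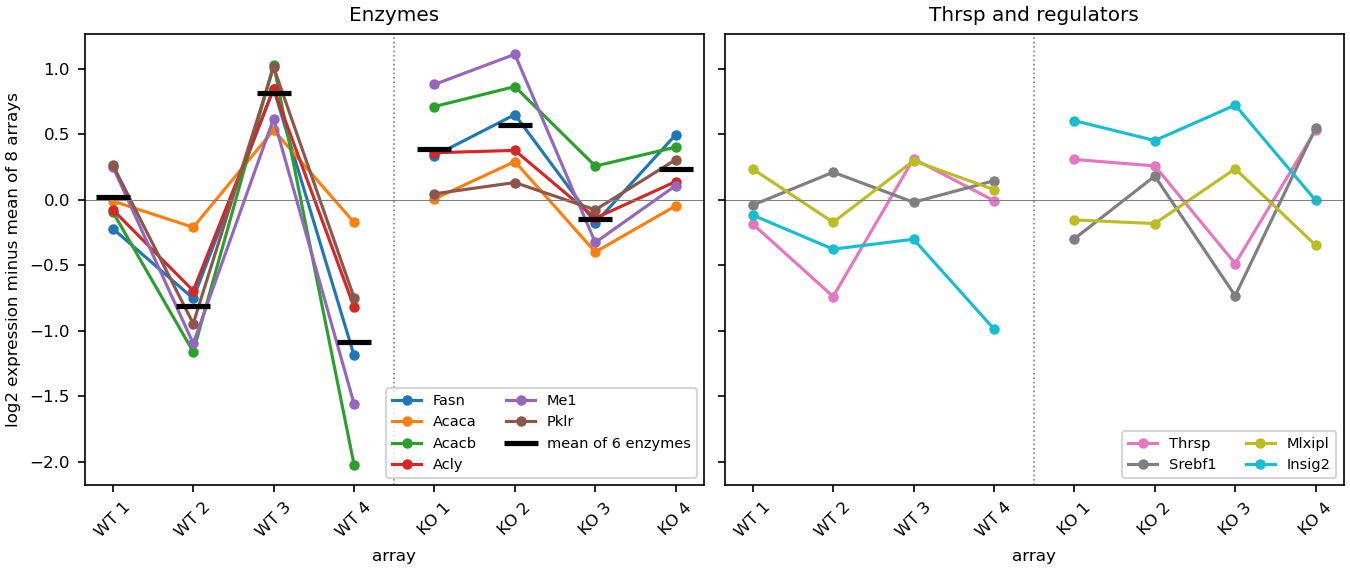
Log2 expression minus the mean over 8 arrays (vertical axis) of the 6 enzymes (left) and of Thrsp, Srebf1, Mlxipl and Insig2 (right) on each array (horizontal axis), by the brightest probe set. Lines join the values of a gene within a genotype and give no order, and black bars are the mean of the 6 enzymes, which runs from -1.08 on WT array 4 to 0.82 on WT array 3.

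After removing the genotype means, 9 relations with Fasn were computed over the 8 arrays and tested by exact permutation within genotypes, two-sided, with Benjamini-Hochberg adjustment over the 9. Acly followed Fasn most closely of the 9 (r = 0.97, rho = 0.88, permutation adjusted p = 0.0195 and 0.0430). The relation was r = 0.95 for Acacb, 0.91 for Acaca and 0.88 for Me1 (rho = 0.86, 0.86 and 0.88, permutation p = 0.00521, 0.00694 and 0.00868 for r, adjusted p = 0.0195 for each), and r = 0.91 for Pklr (rho = 0.83, permutation adjusted p = 0.0375 and 0.05). Without WT arrays 3 and 4, the arrays farthest from the median of Fasn, r remained between 0.72 and 0.92 for these 5 enzymes. The genotype means were not taken anew for the arrays left, here or in the next paragraph. Among the 5, Acaca lay near the lower quartile of all probe sets. The members were chosen with earlier results of these data known, so the p-values of both paragraphs are given as a description. The share of all genes that followed Fasn as closely was not counted.

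Thrsp, which is induced with the enzymes by thyroid hormone and carbohydrate, followed Fasn less closely and did not pass (r = 0.61, rho = 0.57, permutation adjusted p = 0.214 and 0.281), but r was 0.91 without WT arrays 3 and 4. Srebf1 (r = 0.17, rho = 0.36), Mlxipl (r = 0.15, rho = -0.07) and Insig2 (r = 0.30, rho = 0.05) had permutation adjusted p of 0.621, 0.764 and 0.621 for r, and of 0.473, 0.955 and 0.955 for rho. Without WT arrays 3 and 4 their r was 0.61, -0.29 and -0.40.

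Among the 12392 other genes, the 5 whose arrays most resembled Fasn after the genotype means were removed were Nufip1 (r = 0.97), Acly (0.97), Ano10 (0.97), Mpp1 (0.96) and Cse1l (0.96), over 8 arrays. Acly, ranked second, was the only member among them. Those most like Srebf1 were Tomm20 (r = 0.98), Ska2 (0.97), Ptn (0.97), Taf1c (0.97) and Brca1 (0.97), with no member among them. These are ranks out of many genes on few arrays and are given as a description.

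Thrsp (1424737_at) read 13.19, 12.64, 13.69 and 13.37 in WT arrays 1 to 4 and 13.68, 13.63, 12.89 and 13.91 in SIRT7 KO arrays 1 to 4. The groups overlapped and spread alike, with SDs of 0.44 and 0.44. The difference was 0.31 ± 0.26 (95% interval -0.27 to 0.88, adjusted p = 0.640), and that of 1422973_a_at was 0.43 (adjusted p = 0.635).

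The transcripts of both transcription factors did not pass. Srebf1 (1426690_a_at) read 11.57, 11.82, 11.59 and 11.76 in WT and 11.31, 11.79, 10.88 and 12.16 in SIRT7 KO livers. Its WT values lay close together (SD 0.12), and its SIRT7 KO values lay on both sides of them (SD 0.56), which is the opposite order of spread to that of the enzymes. The difference was -0.15 ± 0.24 (95% interval -0.68 to 0.38, adjusted p = 0.83), and 0.07 without SIRT7 KO array 3. This probe set does not separate the transcripts of SREBP-1a and SREBP-1c by name, and the cleaved protein was not measured. Mlxipl (1419185_a_at) read 10.84, 10.43, 10.90 and 10.68 in WT and 10.45, 10.42, 10.84 and 10.26 in SIRT7 KO livers. The groups overlapped, and the difference was -0.22 ± 0.14 (95% interval -0.54 to 0.10, adjusted p = 0.526).

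The members Srebf1, Acaca, Acly and Fasn, lie on chromosome 11, as does Sirt7. Between Sirt7 and Fasn lie 14 protein-coding genes in the GRCm38.p6 gene order, of which 10 were measured. Limma called 0 of the 10 higher (0 also at an unadjusted p under 0.05) and 2 lower, against 2.48% of all genes. They were Notum, a secreted inhibitor of Wnt proteins (-0.61 ± 0.12, adjusted p = 0.0597), and Dcxr, the L-xylulose reductase (-0.58 ± 0.12, adjusted p = 0.0690). Both were named after their values were seen. Both calls were lost without WT array 1 (adjusted p = 0.158 for Notum and 0.189 for Dcxr), and that of Notum also without SIRT7 KO array 4 (0.151).

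The rest of the pathway was described by 6 lists of 112 genes, of which 89 were measured, each by its brightest probe set, and the others were not analysed here. Of the 89 genes, 6 were called higher and 0 lower, against 2.17% and 2.48% of all genes. Beside the unadjusted counts of the lists, 1937 of all 12393 genes had an unadjusted p under 0.05 in either direction. Of 17 genes of fatty acid modification, 5 rose and 0 fell (8 and 0 at an unadjusted p under 0.05), with a median difference of 0.37. Most of them elongate, desaturate or activate fatty acids, while Olah, Mcat, Oxsm and Mecr have other roles. Fads2, the delta-6 desaturase of polyunsaturated fatty acids, rose from 10.84 ± 0.41 (SD, n = 4) to 11.995 ± 0.23, by 1.16 ± 0.20 (SE, adjusted p = 0.0457). The WT arrays read 10.69, 10.44, 11.40 and 10.82 and the SIRT7 KO arrays 12.19, 12.19, 11.73 and 11.87, with no overlap.

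Acsl4, which activates arachidonic acid, rose from 9.37 ± 0.27 to 10.09 ± 0.13 (0.72 ± 0.13 SE, adjusted p = 0.0495). It and Fads2 passed whichever of the 8 arrays was removed. Fads1, the delta-5 desaturase, rose by 0.64 ± 0.17 (adjusted p = 0.125), but with 1 array removed it passed only without WT array 3 (0.75, adjusted p = 0.0993), with an adjusted p of up to 0.254 otherwise. Elovl2, the elongase of long polyunsaturated fatty acids, rose by 0.58 ± 0.14 (adjusted p = 0.100) and passed in 3 of these 8 fits, on removing WT array 3, KO array 3 or KO array 4 (adjusted p of up to 0.195 otherwise). Hsd17b12, the ketoacyl reductase of elongation, rose by 0.37 ± 0.08 (adjusted p = 0.0717) and was lost on removing KO array 2 or 4 (adjusted p = 0.155 and 0.158). The other 12 genes lay between -0.12 and 0.85.

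Of 29 genes that control lipogenesis, among them the liver X receptor Nr1h3, insulin signalling genes and AMPK subunits, 1 rose and 0 fell (1 and 7 at an unadjusted p under 0.05), with a median of -0.13. Irs2, an insulin receptor substrate, rose from 6.45 ± 0.18 (SD, n = 4) to 7.09 ± 0.30, by 0.64 ± 0.15 (SE, adjusted p = 0.0927). Its call was lost on removing WT array 1, WT array 3, KO array 1 or KO array 3 (adjusted p = 0.223, 0.154, 0.177 and 0.175). The remaining 28 genes lay between -0.55 and 0.35. Among them Irs1, another substrate of the receptor, was lower but not called (-0.34 ± 0.14, adjusted p = 0.279). It was called lower without SIRT7 KO array 1 (-0.48, adjusted p = 0.0699).

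**Figure D4:**
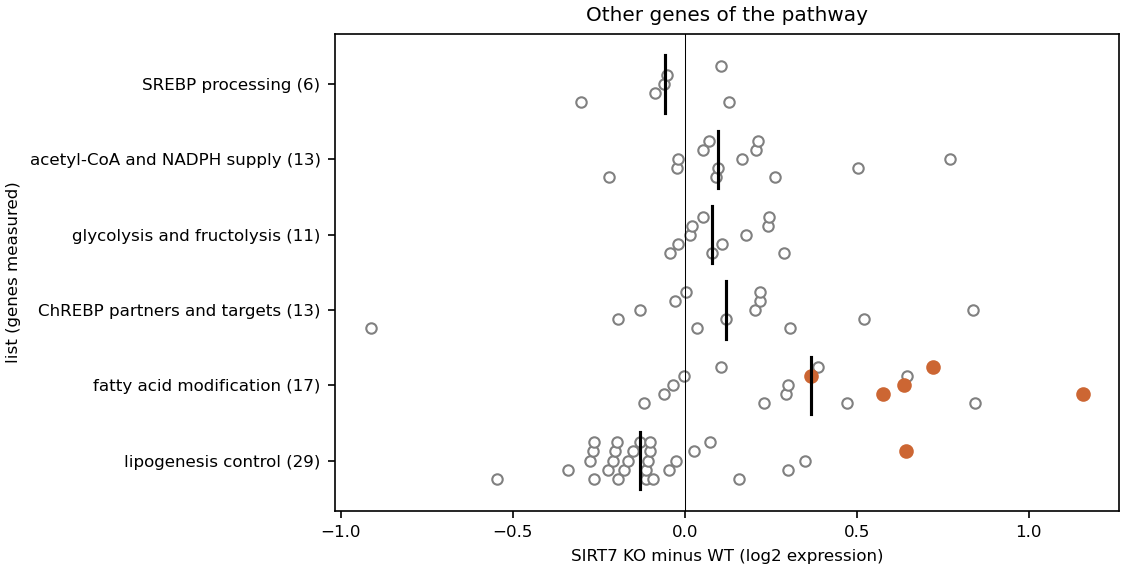
Difference in log2 expression, SIRT7 KO minus WT (horizontal axis), of the measured genes of each pathway list (vertical axis, number measured in brackets), with 1 point per gene and a vertical bar at the list's median. Filled points passed at an adjusted p under 0.15: 5 genes of fatty acid modification (up to 1.16) and Irs2 (0.64) in lipogenesis control.

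In the other 4 lists limma called 0 genes. Of 6 measured genes of SREBP processing, 0 had an unadjusted p under 0.05, with a median of -0.06. The smallest p were those of Scap, the SREBP escort protein (-0.30 ± 0.17, adjusted p = 0.456), and Ubxn4 (0.11 ± 0.08, adjusted p = 0.575), which acts in ER-associated degradation. Of 13 genes that supply acetyl-CoA and NADPH, 2 were higher at an unadjusted p under 0.05, with a median of 0.10. They were the citrate synthase Cs (0.50 ± 0.17, adjusted p = 0.211) and Pgd of the pentose phosphate pathway (0.77 ± 0.30, adjusted p = 0.271), which passed without WT array 3 (1.07, adjusted p = 0.0769). With any other array removed Pgd did not pass (differences down to 0.49, adjusted p of up to 0.421).

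Of 11 genes of glycolysis and fructolysis, 2 were higher at an unadjusted p under 0.05, with a median of 0.08, namely Tpi1 (0.24 ± 0.07, adjusted p = 0.166) and Pgam1 (0.29 ± 0.09, adjusted p = 0.185). Tpi1 passed in 2 of 8 other settings, with low probe sets left out (adjusted p = 0.106) and with trend and robust variance (0.133). Pgam1 passed in 1 of 8, with low probe sets left out (adjusted p = 0.125). With 1 array removed, both passed in 0 of 8 fits (adjusted p of up to 0.320 and 0.337). Of 13 ChREBP partners and targets, 0 had an unadjusted p under 0.05, with a median of 0.12. The smallest p were those of Mttp, which loads lipid onto lipoproteins (0.21 ± 0.10, adjusted p = 0.372), and Ppp1r3c, a glycogen-targeting subunit of protein phosphatase 1 (-0.91 ± 0.44, adjusted p = 0.377).

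Beside these results, some markers of cell types and liver zones moved. Pparg, counted among 6 measured white adipocyte markers and also expressed in fatty liver, rose by 1.16 ± 0.33 (adjusted p = 0.145), and with 1 array removed it passed only without KO array 3 (1.43, adjusted p = 0.0851), with an adjusted p of up to 0.299 otherwise. Of 8 pericentral markers, Slc1a2 (-0.93 ± 0.18, adjusted p = 0.0596) and Cyp1a2 (-0.54 ± 0.13, adjusted p = 0.0980) fell, and of 6 periportal markers Hal fell (-0.77 ± 0.14, adjusted p = 0.0536). A positive difference was seen for 2 of the 8 and 3 of the 6. At an unadjusted p under 0.05, 0 pericentral markers were higher and 2 lower, and 1 periportal marker was higher and 1 lower. The higher one was Cdh1 (0.63 ± 0.18), which was not called (adjusted p = 0.151). Slc1a2 was lost on removing WT array 1 or KO array 4 (adjusted p = 0.157 and 0.151), Cyp1a2 in all but the fits without WT array 3 or WT array 4 (adjusted p of up to 0.208), and Hal without WT array 1 (0.156). The mean level of the pericentral list ranged from 10.19 to 10.55 over WT and from 9.97 to 10.32 over SIRT7 KO arrays, that of the periportal list from 10.63 to 10.92 and from 10.65 to 10.98, and that of 4 erythroid markers, with 0 called (1 lower at an unadjusted p under 0.05), from 5.60 to 5.97 and from 5.57 to 5.90. Their part in the values of Insig2 and the enzymes was not tested.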

How the data were processed

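The values were deposited as a single table on the log2 scale, already summarised by probe set. The methods of the study name RMA and the submitters' processing notes name GCRMA; which made the values is unknown, and no source used here gives versions. Both compress low values differently, which touches probe sets near background such as Acaca. The 64 control probe sets were left out. Probe sets were named by GEO's platform annotation, which can be old. A single symbol was listed for 20380 of 22626 probe sets, several for 691 and none for 1555. Array medians were 6.30 to 6.36, and the number of arrays limits the precision.

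Genotypes were compared with limma 3.58.1 (lmFit and eBayes, R 4.3.3), two-sided, Benjamini-Hochberg adjustment over the 22626 probe sets and a call at an adjusted p under 0.15, the threshold of the study's methods. No source states separate litters or batches, so p-values reflect the spread between these mice, which may be partly technical. The limma fit was tested on simulated data. Where 1 value per gene was needed, the probe set with the highest mean was taken. Promoter windows came from RefSeq (GRCm38.p6), in which all 10 members matched by symbol.

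The members and lists were chosen with earlier results of these data known. Named were all member probe sets, Sirt7, called genes of each list or else the 2 with the smallest p, called markers, and the 5 genes most like Fasn and Srebf1. Other genes given in the text, such as Irs1 and Cdh1, were named after their values were seen. The alternatives were the threshold, the variance model, array weights, quantile normalization, centring, a filter on low values, 1 probe set per gene, a replicate block and leaving out each array.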

Additional observations from a re-analysis of the deposited data

Results flagged for a closer look

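Of 82 groups of 4 arrays tested by Dixon's criterion, 2 held an array whose gap to the others, as a share of the range of the group, exceeded the critical value for 4 arrays, and chance flags about 1 group in 20. WT array 4 lay below the other WT arrays for Pparg (6.62 against 7.63 to 7.84), a gap of 0.830. SIRT7 KO array 3 lay above the other SIRT7 KO arrays for Hal (11.25 against 10.72 to 10.77), with a gap of 0.897. No member probe set had such an array.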

How the results depend on the processing

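The 3 Insig2 probe sets had a positive difference under every alternative that tested them, and 0 member probe sets were called lower under any. At a false discovery rate of 0.05, 0 of the 3 were called (lowest adjusted p = 0.0510), and over all probe sets 89 were called higher and 67 lower, against 434 and 541, with 2 pathway genes higher against 6. With 1 probe set per gene, 1 lipogenesis probe set was called, since a single Insig2 probe set is left there, and 340 genes were lower. With low probe sets left out, 816 were lower. Pathway genes called lower, 0 in the report, were 2 with array weights (Stk11 and Prkab1), 4 with low probe sets left out (these, Akt2 and Fbxw7), 2 with 1 probe set per gene (Stk11 and Prkab1) and 1 with the replicate block (Ppp1r3c, adjusted p = 0.0764). Pparg was lost with trend and robust variance (adjusted p = 0.209).

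Without single arrays, lipogenesis calls ranged from 2 to 5 higher and stayed at 0 lower, calls over all probe sets from 124 to 384 higher and from 98 to 516 lower, and pathway calls from 3 to 8 higher and from 0 to 2 lower. The 5 lipogenesis calls came without WT array 3. The median of the member probe sets ranged from 0.17 to 0.67 and the difference of the enzyme mean from 0.25 to 0.89. The sign turned for the 3 Pklr probe sets without WT array 2 (-0.075, -0.064 and -0.010), for 2 of them without WT array 4 (-0.0090 and -0.017), for Acaca without WT array 3 (0.095) or KO array 3 (0.050), and for Srebf1 without KO array 3 (0.069). In these fits Acaca ranged from -0.18 to 0.095, Srebf1 from -0.36 to 0.069, and the Pklr probe sets from -0.075 to 0.58, from -0.064 to 0.50 and from -0.010 to 0.34. Apart from the single Insig2 probe set per gene, the cause of these changes was not tested.

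Samples with the same replicate number did not deviate together (r = 0.26, -0.25, -0.16 and 0.15), and 1 of 4 correlated best with its own number, so the numbers were not taken as pairs. With the replicate number as a block, 3 lipogenesis probe sets were called higher and 0 lower, and over all probe sets 309 were higher and 319 lower. The calls of Elovl2, Irs2, Pparg and Cyp1a2 were lost with the block (adjusted p = 0.183, 0.170, 0.187 and 0.159).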
